A study of Mus musculus with 48 samples.

Results

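Axin and tankyrase genes of the Wnt pathway, 8 in all, were followed through mouse kidney after D-alanine or vehicle. They are Axin1, Axin2, Rnf146, Tnks, Tnks2, Apc, Ctnnb1 and Gsk3b, and were chosen by gene symbol from the 49585 genes of the deposited tables. All 8 passed the filter on low values that left 14922 genes for testing. The symbols were picked with results of these data in view, and which of their values led to the choice is not recorded. Calls on these genes are therefore descriptions, and each count is set beside the share of all tested genes that passed the same rule.

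The series compared kidneys of wild-type mice given D-alanine, the mirror form of L-alanine, with kidneys of mice given vehicle. Kidneys were taken at circadian times CT0, CT4, CT8, CT12, CT16 and CT20, where CT counts hours of the animals' internal day. Both treatments had 4 libraries at each of the 6 times, which gave 12 groups and 48 libraries. The labels give no dose, route, strain, age or sex. The values come in 2 tables with 2 libraries per group in each. The series text speaks of an experiment done 2 times, and equating the tables with those runs is an inference. The series text says that the kidneys came from different mice.

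The beta-catenin branch of Wnt signalling turns on how fast the protein beta-catenin is destroyed. Without a Wnt signal, a complex built on the scaffolds AXIN and APC lets the kinase GSK3 beta mark beta-catenin for degradation. Tankyrases attach ADP-ribose chains to AXIN, and the ubiquitin ligase RNF146 reads those chains and sends AXIN to the proteasome, which slows beta-catenin destruction. Axin2 is itself switched on by the pathway in many tissues. In kidney, Wnt signalling is known for nephron formation, for collecting duct and medulla growth and for repair after injury.

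Libraries held between 7626120 and 14403190 counted fragments (median 11601235). Correlations of replicates were at least 0.945 inside a table and at least 0.901 between the tables. Slc34a1, the proximal tubule phosphate transporter gene, was added as a reference after its values were seen. It is thus no independent check of the tissue label. Its mean FPKM was 1948 ± 327 for vehicle and 1903 ± 449 for D-alanine (SD, n = 24). FPKM divides a gene's fragments by its length and by the library's total. Mitochondrially encoded genes took a median of 41.1% of FPKM in the vehicle libraries of the first table and 37.1% in its D-alanine libraries, against 20.3% and 17.01% in the second table. The library D-alanine CT0 replicate 2, in the first table, stood apart. Its median correlation with the other libraries of its table was 0.929, against 0.954 for the next lowest, and its summed inner medulla markers (707.7 FPKM) and principal cell markers (3127 FPKM) were the highest of all 48. The main treatment differences of Rnf146 and Axin1 are given with and without it, as are some other results. All other values include it unless stated. In whole kidney, fewer cells of a type and less RNA per cell cannot be told apart.

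Positions below are those of the deposited tables on GRCm38, and a gene's value sums its exons. Among the scaffolds, Axin1 lies at chr17:26138688-26195811 on the plus strand (ENSMUSG00000024182) and Axin2 at chr11:108920349-108950783 on the plus strand (ENSMUSG00000000142). The tankyrase genes are Tnks at chr8:34826460-34965690 on the minus strand (ENSMUSG00000031529) and Tnks2 at chr19:36834232-36893477 on the plus strand (ENSMUSG00000024811). The ligase gene Rnf146 lies at chr10:29344176-29362442 on the minus strand (ENSMUSG00000038876). The kinase gene Gsk3b lies at chr16:38089001-38246084 on the plus strand (ENSMUSG00000022812). Ctnnb1, which encodes beta-catenin, lies at chr9:120929216-120960507 on the plus strand (ENSMUSG00000006932).

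Promoter windows of the 250 bases before the start site were read from RefSeq, build GRCm38.p6, for the 5 members matched there (Axin2, Rnf146, Tnks2, Ctnnb1 and Gsk3b). Axin1, Tnks and Apc had no entry. The 3 windows printed here belong to Rnf146, the member called between treatments, to Tnks2, called for a daily pattern, and to Axin2, the pathway's own target. They end at the base before the start of the gene in the deposited tables and are written 5′ to 3′ on the gene's strand, at chr10:29362443-29362692 (minus), chr19:36833982-36834231 (plus) and chr11:108920099-108920348 (plus). GC content was 43.2% for Rnf146, 59.6% for Tnks2 and 69.2% for Axin2.
Rnf146: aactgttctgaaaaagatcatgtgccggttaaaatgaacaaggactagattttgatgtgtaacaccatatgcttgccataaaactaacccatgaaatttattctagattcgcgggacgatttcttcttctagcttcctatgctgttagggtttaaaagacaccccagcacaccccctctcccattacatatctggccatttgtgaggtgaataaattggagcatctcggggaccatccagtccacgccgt
Tnks2: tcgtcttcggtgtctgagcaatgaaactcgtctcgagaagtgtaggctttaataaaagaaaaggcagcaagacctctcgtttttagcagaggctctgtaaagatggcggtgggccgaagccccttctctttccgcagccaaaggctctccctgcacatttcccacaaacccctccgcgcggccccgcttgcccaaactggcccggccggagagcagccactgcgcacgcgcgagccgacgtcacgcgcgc
Axin2: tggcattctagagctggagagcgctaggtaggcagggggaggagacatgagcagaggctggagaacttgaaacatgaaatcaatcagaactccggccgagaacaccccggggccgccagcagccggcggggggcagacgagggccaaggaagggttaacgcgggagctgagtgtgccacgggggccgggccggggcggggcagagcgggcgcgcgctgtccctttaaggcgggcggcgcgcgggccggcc
No letters are in capitals because none of the 5 motifs searched on both strands was found in any window of the 5 members. The motifs were the E-box CACGTG, present in 6.02% of 32851 RefSeq promoter windows of this length, the D-box TTATGNAA in 3.07%, the ROR and REV-ERB core AGGTCA in 14.0%, the TCF and LEF core ATCAAAG in 3.21% and the cyclic AMP element TGACGTCA in 1.55%. This says only that those letters are not in these windows.

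The 8 genes differed widely in level. Over all 48 libraries, Ctnnb1 was the most abundant at 45.8 ± 9.18 FPKM (SD, n = 48), followed by Tnks2 at 8.41 ± 1.48, Axin1 at 8.37 ± 3.76, Rnf146 at 5.27 ± 1.21, Gsk3b at 3.84 ± 0.918, Apc at 2.80 ± 0.701, Tnks at 2.07 ± 0.496 and Axin2 at 0.892 ± 0.729. The Ctnnb1 range, 31.1 to 68.6 FPKM, did not meet that of Tnks2, 6.22 to 15.3 FPKM. Every other neighbouring pair in that order overlapped, and Tnks2 and Axin1 lay within 1 SD of each other. Of the 2 tankyrases the kidney thus held more Tnks2 than Tnks RNA per length, and Axin1 stood above Axin2. Axin2 rested on few fragments, 2 to 208 per library with a median of 44, whereas Axin1 rested on 235 to 1470 and Ctnnb1 on 1472 to 4448.

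**Figure D1:**
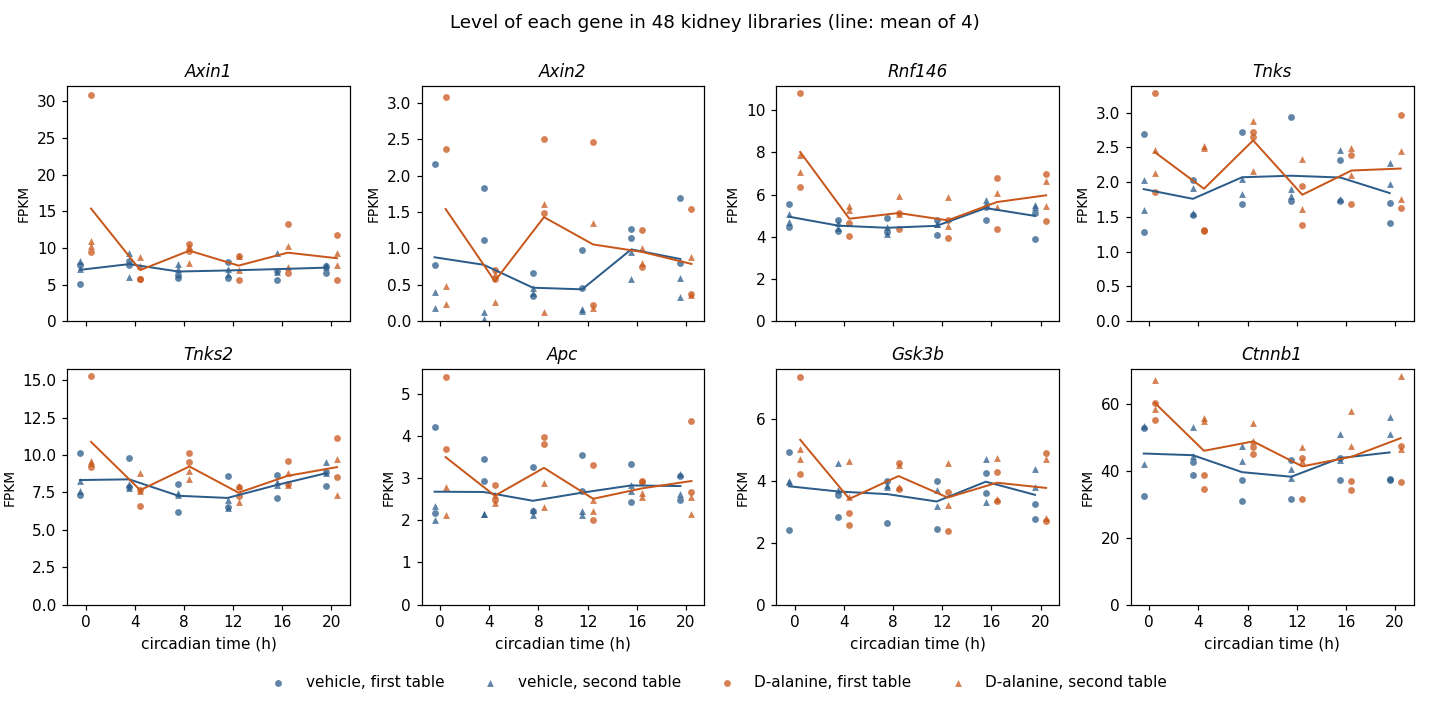
FPKM (vertical axes, from 0) of the 8 genes against circadian time in hours, with 1 point per library, vehicle in blue and D-alanine in orange, circles for the first table and triangles for the second, and lines through the means of 4 libraries. At CT0 the D-alanine means of all 8 genes lie above the vehicle means, and 1 D-alanine library reaches 30.8 FPKM for Axin1.

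The first comparison was D-alanine against vehicle, averaged over the 6 times. All 8 genes had a mean log2 difference above 0, beside 76.3% of all tested genes, and only Rnf146 passed an adjusted p under 0.05 (limma, Benjamini-Hochberg over all genes). That is 1 of 8 called, beside 1.74% of all genes in either direction and 1.59% higher with D-alanine. At an unadjusted p under 0.05, 4 of 8 were higher (Rnf146, Axin1, Ctnnb1 and Tnks2), beside 19.3% of all genes. The median difference of the 8 was 0.14 on the log2(FPKM + 1) scale and that of all genes 0.06.

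Rnf146, the ligase gene that joins tankyrase activity to AXIN breakdown, spanned 3.92 to 5.73 FPKM in vehicle (median 4.75) and 3.92 to 10.8 in D-alanine (median 5.43). The ranges overlapped from the bottom up, and the D-alanine libraries reached higher. The means were 4.799 ± 0.519 and 5.74 ± 1.502 FPKM (SD, n = 24). The log2 difference was 0.19 ± 0.05 (SE, limma adjusted p = 0.0337), and the D-alanine mean was above the vehicle mean in 10 of 12 pairs of time and table. Without D-alanine CT0 replicate 2 it was 0.17 (adjusted p = 0.0436), but leaving out any of 9 other libraries ended the call, with adjusted p-values up to 0.0565. It was 0.16 in the first table and 0.22 in the second, where the adjusted p-values were 0.628 and 0.0694 with 24 libraries each. Over the 5 times without CT0 it was 0.11 ± 0.05, with an adjusted p of 0.493 in limma. Scaling ended the call as well. With each library centred on its median log value the difference was 0.12 (adjusted p = 0.241), and with mitochondrial genes taken out of the total it was 0.18 (adjusted p = 0.124).

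None of the 3 scaffold genes passed the threshold. Axin1 spanned 5.03 to 9.33 FPKM in vehicle (median 7.16) and 5.64 to 30.8 in D-alanine (median 8.86). Its log2 difference was the largest of the 8, at 0.30 ± 0.09 (SE, limma adjusted p = 0.0802), and the D-alanine mean was higher in 11 of 12 pairs. In the first table it was 0.39 and in the second 0.21, and without D-alanine CT0 replicate 2 it was 0.23, below the mean with it and not past the threshold. Axin2 spanned 0.0360 to 2.16 FPKM in vehicle (median 0.587) and 0.130 to 3.08 in D-alanine (median 0.772), so that most of each range was shared. Its log2 difference was 0.21 ± 0.12 (adjusted p = 0.315) and was above 0 in 9 of 12 pairs. Apc, the other scaffold, lies at chr18:34220924-34322189 on the plus strand (ENSMUSG00000005871). It had 2.68 ± 0.573 FPKM with vehicle and 2.92 ± 0.805 with D-alanine (SD, n = 24), a log2 difference of 0.08 ± 0.06 (adjusted p = 0.441).

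Neither tankyrase gene passed the threshold. Tnks2 had 7.98 ± 1.01 FPKM with vehicle and 8.84 ± 1.76 with D-alanine (SD, n = 24), with a log2 difference of 0.12 ± 0.05 (adjusted p = 0.150) and higher means in 10 of 12 pairs. Tnks had 1.96 ± 0.425 and 2.19 ± 0.542 FPKM, with a log2 difference of 0.10 ± 0.07 (adjusted p = 0.378). Ctnnb1, whose protein the complex acts on, had 43.0 ± 7.24 FPKM with vehicle and 48.5 ± 10.2 with D-alanine, a log2 difference of 0.16 ± 0.06 (SE, limma adjusted p = 0.0982). Gsk3b had 3.66 ± 0.693 and 4.02 ± 1.08 FPKM, a log2 difference of 0.09 ± 0.07 (adjusted p = 0.449), with higher means in 7 of 12 pairs. The treatment by table interaction passed for 0 of 8 genes and for 0% of all genes, with adjusted p = 0.9998 for each member in limma.

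**Figure D2:**
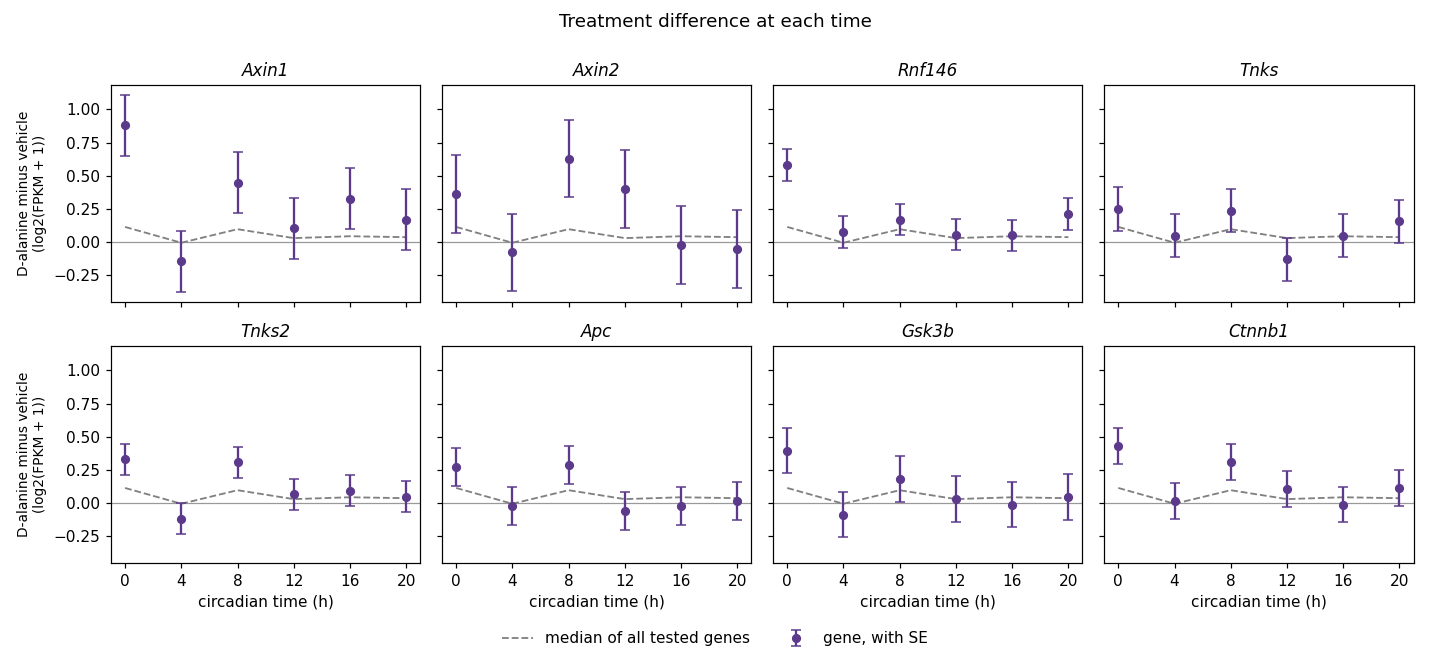
Difference between D-alanine and vehicle on the log2(FPKM + 1) scale (vertical axes, shared) at each circadian time in hours for the 8 genes, as points with the SE from limma, and the median of all tested genes as a dashed line. The points at CT0 and CT8 are above 0 for all 8 genes, and those at CT4 lie close to 0.

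The second comparison asked at which times the treatments differed. At CT0 2 of 8 members passed, Rnf146 and Axin1, beside 1.14% of all genes (170) and 1.11% higher with D-alanine. At each of the other 5 times 0 of 8 members and 0% of all genes passed in limma, while the genes under 0.05 before adjustment numbered 381 at CT4, 2215 at CT8, 338 at CT12, 708 at CT16 and 384 at CT20, against 3281 (22% of all) at CT0. The median difference of the 8 members was 0.38 at CT0, -0.05 at CT4, 0.30 at CT8, 0.06 at CT12, 0.02 at CT16 and 0.08 at CT20. The median of all genes was 0.12 at CT0, 0.00 at CT4, 0.10 at CT8 and 0.03 to 0.05 at the later times. All 8 members were above 0 at CT0, beside 69.6% of all genes, and all 8 at CT8, beside 72.1%. At CT4 3 of 8 were above 0 (48.4% of all genes), at CT12 6 (60.4%), at CT16 4 (62.7%) and at CT20 7 (63.5%).

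At CT0 Rnf146 was 5.55, 4.48, 5.09 and 4.70 FPKM in the 4 vehicle libraries and 6.35, 10.8, 7.88 and 7.07 in the 4 D-alanine libraries, replicates 1 and 2 being of the first table. Every D-alanine library was above every vehicle library. The log2 difference was 0.58 ± 0.12 (SE, limma adjusted p = 0.0303). Axin1 was 7.63, 5.03, 8.26 and 7.14 FPKM in vehicle and 9.52, 30.8, 10.9 and 10.2 in D-alanine. Its groups did not overlap either, but D-alanine replicate 2 stood far above the other 3, and the log2 difference was 0.88 ± 0.23 (SE, limma adjusted p = 0.0475). Ctnnb1 was 52.8, 32.5, 53.6 and 42.2 FPKM in vehicle and 55.5, 60.4, 67.5 and 58.6 in D-alanine. These groups were apart as well, with a narrow gap, and the log2 difference was 0.43 ± 0.14 (SE, limma adjusted p = 0.0771). Groups of 4 apart in this direction at CT0 were thus seen for 3 of 8 members, beside 3.24% of all genes.

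The other 5 members overlapped at CT0. Tnks2 was 10.1, 7.30, 8.29 and 7.57 FPKM in vehicle and 9.19, 15.3, 9.58 and 9.48 in D-alanine. Here the first vehicle library lay above 3 of the 4 D-alanine libraries. Gsk3b was 4.95, 2.43, 3.96 and 4.00 FPKM in vehicle and 4.23, 7.37, 5.03 and 4.73 in D-alanine. Again 1 vehicle library, replicate 1, reached into the D-alanine values. The log2 differences at CT0 were 0.33 ± 0.12 for Tnks2 (adjusted p = 0.107) and 0.25 ± 0.16 for Tnks (adjusted p = 0.361). They were 0.28 ± 0.14 for Apc, 0.36 ± 0.29 for Axin2 and 0.40 ± 0.17 for Gsk3b, with adjusted p-values of 0.255, 0.475 and 0.169 in limma. Without D-alanine CT0 replicate 2 the differences were 0.175 for Tnks2, 0.126 for Tnks, 0.127 for Apc, 0.256 for Axin2 and 0.226 for Gsk3b.

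Both calls at CT0 depended on which libraries were kept. Without D-alanine CT0 replicate 2, Rnf146 had 0.43 ± 0.11 (SE, limma adjusted p = 0.228) and Axin1 0.49 ± 0.19 (adjusted p = 0.404), and 0 genes passed in all. Leaving out vehicle CT0 replicate 2 also left 0 genes called, vehicle replicate 4 left 1 gene and D-alanine replicate 3 left 18, Rnf146 but not Axin1 among them (adjusted p = 0.04998 and 0.0524). Leaving out vehicle replicate 1 raised the calls to 1247 genes and 4 members, D-alanine replicate 1 to 521 genes and D-alanine replicate 4 to 741. Leaving out each of the 40 libraries of other times left Rnf146 called at CT0 in 40 of 40 (adjusted p up to 0.0359) and Axin1 in 13 of 40 (adjusted p up to 0.0555). In the second table alone, which does not hold the library that stood apart, the CT0 difference was 0.52 ± 0.11 for Rnf146 (adjusted p = 0.326), 0.42 ± 0.20 for Axin1 and 0.40 ± 0.17 for Ctnnb1. In the first table alone it was 0.64 for Rnf146, 1.34 for Axin1 and 0.47 for Ctnnb1.

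**Figure D3:**
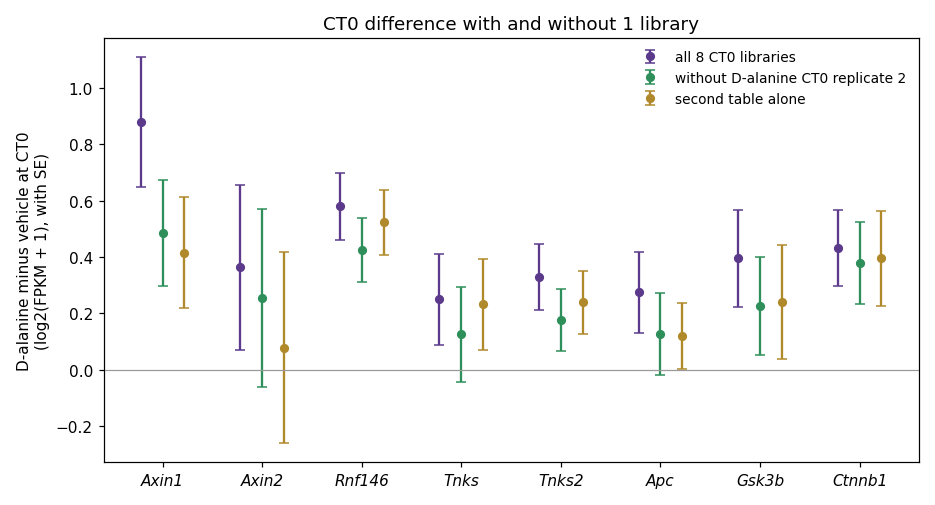
Difference between D-alanine and vehicle at CT0 on the log2(FPKM + 1) scale (vertical axis) for the 8 genes, as points with the SE from limma, for all 8 CT0 libraries, without D-alanine CT0 replicate 2, and in the second table alone. Axin1 moves from 0.88 to 0.49 without that library, and Rnf146 from 0.58 to 0.43.

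At CT8 the 8 genes were again above 0, without a call. Axin1 was 5.88, 6.38, 7.07 and 7.82 FPKM in vehicle and 10.6, 9.63, 8.01 and 10.3 in D-alanine, a log2 difference of 0.45 ± 0.23 (SE, limma adjusted p = 0.351). Tnks2 was 6.22, 8.09, 7.30 and 7.49 FPKM in vehicle and 9.54, 10.1, 8.91 and 8.38 in D-alanine, a log2 difference of 0.31 ± 0.12 (adjusted p = 0.281). The groups of both genes did not overlap, which makes 2 of 8 members beside 6.15% of all genes at CT8. Axin2 had its largest difference there, 0.63 ± 0.29 (adjusted p = 0.320), from 0.340, 0.659, 0.388 and 0.453 FPKM in vehicle to 2.50, 1.48, 0.130 and 1.60 in D-alanine. D-alanine replicate 3 was below all 4 vehicle libraries. Rnf146 differed by 0.17 at CT8, Ctnnb1 by 0.31, Tnks by 0.24, Apc by 0.29 and Gsk3b by 0.18.

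At CT4, CT12, CT16 and CT20 0 of 8 members had groups that did not overlap, in either direction. The shares of all genes with D-alanine above vehicle were 0.536%, 0.911%, 1.19% and 0.603%. Those with D-alanine below vehicle were 0.342%, 0.268%, 0.375% and 0.168%. Differences at those times ran from -0.15 (Axin1 at CT4) to 0.40 (Axin2 at CT12). For Rnf146 they were 0.08 at CT4, 0.06 at CT12, 0.05 at CT16 and 0.21 at CT20. Whether the treatment difference depended on time was tested directly by the interaction, which 0 of 8 members and 0% of all genes passed in limma. In the same limma fit 527 of all genes (3.53%) were under 0.05 before adjustment, Rnf146 among them, whose adjusted p was 0.965. The difference seen at CT0 for Rnf146 is therefore not shown to differ from that at other times.

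The third comparison was the daily pattern, fitted as a 24 h cosine and sine. Over both treatments at once, 3 of 8 members passed, Rnf146, Ctnnb1 and Tnks2, beside 26.5% of all genes. Their fitted peaks lay within a few hours of each other around the start of the internal day. Rnf146 had a log2 amplitude (the height of the peak above the daily mean) of 0.15 ± 0.04 and peaked at CT21.3 (SE, limma adjusted p = 0.0106). Ctnnb1 had 0.15 ± 0.04 with a peak at CT23.6 (adjusted p = 0.0135), and Tnks2 0.13 ± 0.04 with a peak at CT22.6 (adjusted p = 0.0214). In vehicle, mean Tnks2 was lowest at CT12, 7.13 ± 0.981 FPKM, and highest at CT20, 8.78 ± 0.656 (SD, n = 4). These swings were small beside those of the clock genes in the same libraries, where Arntl, the BMAL1 gene, had an amplitude of 1.05 and Dbp, a clock output gene, 2.61. All 15 listed clock genes passed.

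The scaffolds Axin1, Axin2 and Apc, the tankyrase gene Tnks and the kinase gene Gsk3b did not pass as rhythmic, with amplitudes of 0.11, 0.09, 0.05, 0.02 and 0.07 and adjusted p-values from 0.481 to 0.943 in limma. Within vehicle 0 of 8 members passed, beside 9.77% of all genes, and within D-alanine 1 of 8, Rnf146, beside 8.30%. Rnf146 in D-alanine had an amplitude of 0.23 ± 0.05 and a peak at CT22.3 (SE, limma adjusted p = 0.0109), and in vehicle 0.10 ± 0.05 (adjusted p = 0.433). Without D-alanine CT0 replicate 2 the D-alanine amplitude was 0.18 ± 0.05 (limma adjusted p = 0.0311), 1 of 8 members called beside 6.82% of all genes. Over both treatments the same 3 of 8 members then passed, beside 25.2% of all genes. The group means of Rnf146 in vehicle ran from 4.43 ± 0.336 FPKM at CT8 to 5.36 ± 0.399 at CT16, and in D-alanine from 4.78 ± 0.831 at CT12 to 8.03 ± 1.96 at CT0 (SD, n = 4). The difference in rhythm between treatments was tested and passed for 0 of 8 members and 0% of all genes in limma. Before adjustment 353 genes (2.37%) and 0 members were under 0.05, and Rnf146 had an unadjusted p of 0.0637 in limma.

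Axin2 varied widely between libraries of a group and was higher where inner medulla markers were higher in both tables. In vehicle it was 1.10 ± 0.560 FPKM in the first table and 0.362 ± 0.258 in the second, and in D-alanine 1.44 ± 0.961 and 0.663 ± 0.478 (SD, n = 12). The second table was lower by 0.55 on the log2(FPKM + 1) scale, the largest table difference of the 8. The summed FPKM of the 4 inner medulla markers (Slc14a2, Aqp4, Akr1b3 and Fxyd4) had a median of 154 in the first table and 41.4 in the second. It ran from 25.5 to 384.9 in vehicle (median 46.6) and from 20.6 to 707.7 in D-alanine (median 81.3). None of the 4 markers was at 0 throughout, and 0 of 4 passed between treatments. Only 2 of the 4 had a mean log2 difference above 0, beside 76.3% of all genes. On log2 scales the correlation of Axin2 with that sum was 0.86 over the 24 libraries of the first table and 0.90 over the 24 of the second, given as a description, since all genes of a library share its scaling. Apc gave 0.85 and 0.68. In the first table the other 6 members correlated with the sum as well, from 0.72 for Tnks to 0.87 for Gsk3b, and in the second they ran from 0.04 for Ctnnb1 to 0.42 for Tnks. Axin2 also went with the sum of endothelial markers, at 0.84 and 0.64. It ran against the sum of proximal tubule markers, at -0.73 and -0.555. With principal cell markers it was at 0.715 over the 48 libraries with table means removed. The link was thus not particular to the inner medulla markers.

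**Figure D4:**
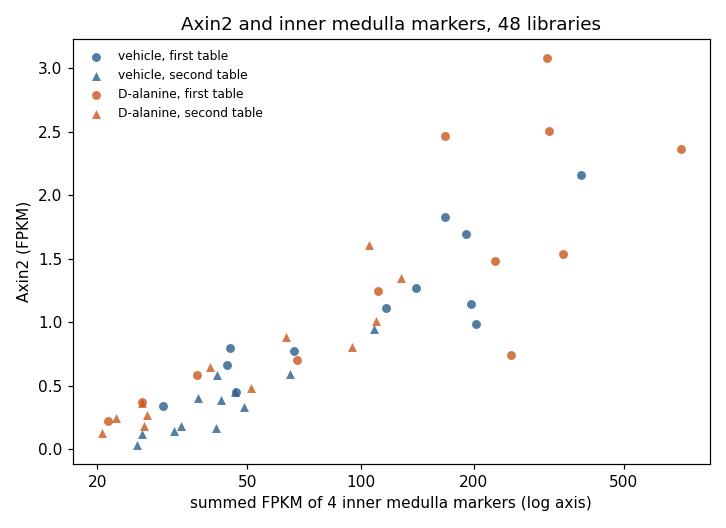
Axin2 in FPKM (vertical axis) against the summed FPKM of 4 inner medulla markers (horizontal axis, log scale) in 48 libraries, vehicle in blue and D-alanine in orange, circles for the first table and triangles for the second. Axin2 is higher where the marker sum is higher in both tables, and the second table sits at the lower end.

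With the inner medulla sum as a covariate, which was added after the data were seen, the mean treatment difference of Axin2 went from 0.21 to 0.11 (limma adjusted p = 0.326) and that of Apc from 0.08 to 0.04. Rnf146 correlated with that sum at 0.73 in the first table but only 0.13 in the second. In this fit it was called at 0.17 ± 0.04 (SE, adjusted p = 0.0228), and Axin1 had 0.24 ± 0.07 (adjusted p = 0.0516). That is 1 of 8 members called, beside 3.31% of all genes in that fit. At CT0 in that fit Rnf146 had 0.52 (adjusted p = 0.0136) and Axin1 0.72 (adjusted p = 0.0285), beside 2.16% of all genes called. Without D-alanine CT0 replicate 2 the covariate fit gave means of 0.15 for Rnf146 (adjusted p = 0.0239) and 0.20 for Axin1 (adjusted p = 0.0359), beside 3.18% of all genes called. The CT0 differences were then 0.42 and 0.46 (adjusted p = 0.0954 and 0.156), beside 0.0536% called. The sum of the 7 endothelial markers ran from 32.6 to 87.5 FPKM in vehicle (median 47.5) and from 38.2 to 162.1 in D-alanine (median 55.8), with the highest value in the library that stood apart. All 7 endothelial markers were higher at an unadjusted p under 0.05, beside 19.3% of all genes (median log2 difference 0.17), and 0 of 7 passed after adjustment. None was at 0 throughout, and these counts include the library that stood apart. Rnf146 correlated with the endothelial sum at 0.79 within the first table, or 0.67 without D-alanine CT0 replicate 2, and at 0.70 within the second. Each table held 24 libraries, and the part of those cells in the Rnf146 difference was not tested. The other 11 marker lists had 0 calls in either direction. Higher before adjustment were 2 of 7 fibroblast and mural markers (all 7 above 0, median 0.17) and 1 of 5 red blood cell markers. The 3 tested adipose markers were higher too (median log2 difference 0.30), but this is a description only. The adipose sum had a median of 0.281 FPKM in vehicle (highest 2.13) and 0.675 in D-alanine (highest 9.14). Genes this low could pass the filter largely through D-alanine libraries, which favours a higher value there.

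The 8 genes also varied together across libraries. With table means removed, correlations between pairs over the 48 libraries were highest for Axin1 with Tnks2 at 0.83. At 0.82 came Axin1 with Gsk3b, Tnks2 with Ctnnb1, Tnks2 with Gsk3b and Tnks with Gsk3b. Without D-alanine CT0 replicate 2 these pairs were at 0.74, 0.76, 0.80, 0.75 and 0.80 in that order. The lowest was Axin2 with Rnf146, at 0.43, or 0.38 without that library. These too are descriptions, and Axin1 also went with the mitochondrial share at -0.61, or -0.46 without that library. Over the 12 group means, the gene most like Axin1 in pattern was Tmed2 (Pearson r = 0.98), and the closest to Rnf146 was Ddx23 (0.98). Ctnnb1 was closest to Pias2 (0.99), Gsk3b to Mecom (0.98), Apc to Kdm2a (0.98), Tnks2 to Cgnl1 (0.97) and Tnks to Cdk12 (0.96). The 3 genes closest to Axin2 were Chst2, Ddx58 and Igfbp5, at 0.96 each. These are the highest values found among all named tested genes, over only 12 means. How high the closest match of any other gene would be was not tested. The D-alanine CT0 mean includes the library that stood apart, and likeness without it was not tested.

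The rest of the pathway was read from 10 lists holding 151 genes, of which 113 were tested. Of these, 3 were higher with D-alanine and 0 lower, which is 2.65% beside 1.74% of all genes, and 90 of 113 had a difference above 0. The median was 0.07, beside 0.06 over all genes. The 3 were Csnk1g2, a casein kinase that acts on the Wnt co-receptor, at 43.2 ± 3.31 FPKM with vehicle and 47.6 ± 4.32 with D-alanine (log2 difference 0.14, limma adjusted p = 0.0277), Bcl9l, which joins beta-catenin to its transcriptional partners, at 5.76 ± 1.08 and 6.81 ± 1.59 (0.20, adjusted p = 0.0427), and Mcl1, a survival factor known as a tankyrase binding partner, at 30.4 ± 2.92 and 33.5 ± 2.63 (0.14, adjusted p = 0.0320). Without D-alanine CT0 replicate 2, 2 of 113 were called, Csnk1g2 and Mcl1, beside 1.25% of all genes. These calls also depend on scaling. Over all genes only 3 were called higher with quantile normalization, 3 with median centring and 0 in the first table alone. Whether these pathway genes were among the former is not given. Mcl1 was higher in 12 of 12 pairs of time and table, which held for 0.509% of all genes. That count is a description only, because Mcl1 was named for its call in these same libraries. For the daily pattern 37 of 113 passed (32.7%), beside 26.5% of all genes.

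Outside the cell, 0 of 7 tested Wnt ligands passed between treatments. Wnt4, a ligand of the collecting duct and medulla, had 3.71 ± 6.03 FPKM with vehicle and 6.78 ± 8.55 with D-alanine (SD, n = 24), a log2 difference of 0.55 ± 0.28 (limma adjusted p = 0.258). Its SD exceeded its mean in both treatments, as did that of Wnt7b, a ligand of the same region, at 5.25 ± 5.94 and 10.5 ± 15.5 FPKM (adjusted p = 0.425). Wnt5b was the ligand with a daily pattern, with an amplitude of 0.34 and a peak at CT12.7 (adjusted p = 5.912e-08). In the lists that follow, counts of rhythmic genes are to be read beside the 26.5% of all genes called rhythmic. Among 11 receptors 0 passed between treatments and 4 were rhythmic, all Frizzled genes. Fzd1, Fzd7 and Fzd8 peaked at CT3.98, CT4.39 and CT5.13, and Fzd2 at CT22.99 (adjusted p = 0.0451). Among 4 R-spondin genes, receptors and ligases 0 passed, and Lgr4, an R-spondin receptor, peaked at CT4.24 (adjusted p = 0.00707). The R-spondin gene Rspo3 was at 0.490 ± 0.669 and 1.08 ± 1.60 FPKM (log2 difference 0.32, adjusted p = 0.229).

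Of 8 tested secreted inhibitors and their partners, 0 passed between treatments and 5 were rhythmic. Dkk2, which blocks the co-receptor, had an amplitude of 0.34 and a peak at CT0.944 (limma adjusted p = 7.779e-05). Dkk3 and the Wnt-binding Sfrp1 peaked at CT0.199 and CT0.136. Kremen1, a receptor for the Dickkopf inhibitors, had 3.41 ± 0.614 FPKM with vehicle and 4.09 ± 1.06 with D-alanine (log2 difference 0.19, adjusted p = 0.0962).

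Among 23 cytoplasmic regulators of beta-catenin, 1 was higher (Csnk1g2), and 7 were rhythmic. Csnk1d, a casein kinase of both the Wnt pathway and the clock, had 15.03 ± 2.12 and 16.8 ± 2.97 FPKM (log2 difference 0.14, limma adjusted p = 0.0578). Btrc, which encodes the ligase subunit that recognises marked beta-catenin, peaked at CT7.37 with an amplitude of 0.15 (adjusted p = 0.0001307). Of 15 nuclear partners 1 was higher (Bcl9l), and 3 were rhythmic, Bcl9l among them with a peak at CT19.9. Pygo2, a partner of the BCL9 proteins, had 8.96 ± 1.24 and 11.3 ± 4.87 FPKM (adjusted p = 0.0657). Of 7 adherens junction genes, which hold the other pool of beta-catenin at the cell surface, 0 passed between treatments and 2 were rhythmic (Afdn and Cdh16).

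Of 11 tested Wnt target genes, 0 passed between treatments, and the median difference of 0.01 was below the 0.06 of all genes. The target with the smallest p was Nkd1, a feedback inhibitor, at 1.10 ± 0.510 FPKM with vehicle and 1.40 ± 0.711 with D-alanine (log2 difference 0.18, limma adjusted p = 0.274). Ccnd1, the cyclin D1 gene, had 26.3 ± 5.59 and 26.8 ± 7.39 FPKM, a log2 difference of 0.01. Rhythmic targets numbered 4, among them Ccnd1 with a peak at CT8.24, Myc with a peak at CT18.5 and Notum, a secreted Wnt deacylase gene, with a peak at CT13.6.

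On the tankyrase side, 0 of 19 genes of the PARP family and ADP-ribose removal passed between treatments. Parp1, the DNA damage sensor, had 6.32 ± 0.854 FPKM with vehicle and 7.09 ± 1.14 with D-alanine (log2 difference 0.14, limma adjusted p = 0.0821), and Parg, which removes ADP-ribose chains, had 2.66 ± 0.480 and 2.92 ± 0.606 (adjusted p = 0.241). Daily patterns were called for 9 of the 19, beside 26.5% of all genes, with peaks at CT6.71 for Parp3, CT9.28 for Parp10 and CT0.421 for Parp9. Of 13 tankyrase partners 1 was higher (Mcl1), and 2 were rhythmic, Amotl1, an angiomotin family member, and the deubiquitinase gene Usp25. Numa1, a spindle protein gene, had a log2 difference of 0.10 (adjusted p = 0.152).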

How the data were processed

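Per the labels' protocols, kidney RNA was purified on columns and made into mRNA libraries. The authors deposited FPKM values in 2 tables, 1 column per library. The build was GRCm38 (mm10), per the submitters' processing notes, and the sources used here name no aligner, counter or strand setting. Low FPKM values stepped by 1 fragment, and 96.96% to 97.63% of values under 20 fragments in genes with 1 transcript were whole within 0.05 with GENCODE M21 exon lengths, which gave the depth. For 7 of 8 members all 48 values were whole within 0.1. Apc differed from that annotation, so its fragments are not given. FPKM divides by each library's total, so abundant transcripts move all others.

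Genes with at least 1 FPKM in at least 4 libraries entered limma 3.58.1 (R 4.3.3; empirical Bayes, trend) as log2(FPKM + 1), in a fit of 12 groups with the table as a term. Rhythm fits had a 24 h cosine and sine, treatment and table. Treatment p-values are two-sided, and those of the rhythm fits and of the treatment by time interaction come from F tests. Benjamini-Hochberg adjustment was over all genes tested, 14922 in the main fit, at 0.05. The number was 17453 on the TPM scale, 30193 with no filter and 15043 when rescaled without mitochondrial genes. The log2(FPKM + 1) scale understates changes of low genes. The fits were tested on simulated data. In all 72 replicate pairs the chi-square per gene was 5.02 or more, so none differed by sampling noise alone. The p-values measure the spread between these libraries.

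The members and lists were chosen with earlier results of these data known. The 8 members are described in full. From each pathway list up to 3 genes with the smallest treatment p and up to 3 with the smallest rhythm p could be named, and for likeness the 3 genes closest to Axin2 and 1 for each other member. Not all of these were named, and Arntl, Dbp and Slc34a1 were added as reference genes after their values were seen. Alternatives were no filter, a pseudocount of 0.1, rescaling every library to an equal FPKM sum (the TPM scale), quantile normalization, median centring, no table term, each table alone and leaving out each library. Rescaling without mitochondrial genes, the inner medulla covariate the mean without CT0 and the single-treatment rhythm, list and covariate fits without D-alanine CT0 replicate 2 and the CT0 calls by gene without each library were added after the data were seen. Promoter windows came from RefSeq.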

Additional observations from a re-analysis of the deposited data

Results flagged for a closer look

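In 7 of 96 groups of 4 libraries (8 genes in 12 groups), 1 library stood far from the other 3 by Dixon's test at its 95% limit, which chance reaches in about 1 in 20 groups. The 7 values came from 6 libraries, all of the first table. Axin1 was 30.8 FPKM in D-alanine CT0 replicate 2, against 9.52 to 10.9 in the other 3 libraries of its group, and Tnks2 was 15.3 FPKM in that same library. In vehicle CT12 replicate 1 Tnks was 2.94 FPKM, in vehicle CT4 replicate 1 Tnks2 was 9.81 FPKM, in vehicle CT0 replicate 1 Apc was 4.21 FPKM, and in vehicle CT8 replicate 2 Apc was 3.26 FPKM. Gsk3b was low at 2.65 FPKM in vehicle CT8 replicate 1.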

How the results depend on the processing

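Each of the 8 members kept a mean treatment difference above 0 under every alternative run, leaving out each library included. The number called (1) was 0 with no filter, quantile normalization, median centring, no table term, the first table alone, the second table alone and rescaling without mitochondrial genes, and 4 on the TPM scale, where 14.2% of all genes were called and the median of all genes was 0.11. Calls over all genes, 259 at first, were 2479 of 17453 on the TPM scale, 145 of 30193 with no filter, 14 with quantile normalization, 23 with centring, 17 with no table term, 0 in the first table, 14 in the second, 48 without mitochondrial genes and 494 with the inner medulla covariate. Of the calls, 237 of 259 were higher at first, but 3 of 14 with quantile normalization and 3 of 23 with centring. Leaving out 1 library gave 0 to 2 members called, beside 0.623% to 4.23% of all genes. Rnf146 lost its call without vehicle CT0 replicate 4, CT4 replicate 3, CT12 replicate 2, CT16 replicate 2 or CT20 replicate 2, or without D-alanine CT4 replicate 3 or 4, CT12 replicate 4 or CT20 replicate 2, with adjusted p-values up to 0.0565 in limma. The count at single times (2) was 1 with a pseudocount of 0.1 or no filter and 4 on the TPM scale. It was 0 under the other scalings, with no table term and in each table alone. Without 1 library it was 0 to 4, while 0 to 1247 of all genes passed at CT0. For the scalings and the fit with no table term, shares of all genes at single times are not given. Those member counts are therefore descriptions only. The rhythm count (3) fell to 0 with only the first table, where 1831 genes passed against 3947 in the main fit. It was 3 without any 1 library, beside 3495 to 4524 of all 14922 genes. With no table term, where 2094 genes passed, Ctnnb1 was not called (limma adjusted p = 0.104). The interaction and rhythm difference counts were 0 throughout, 0 to 0 without 1 library. The cause of these changes was not tested. No paired analysis was possible because replicate numbers follow the order of the samples and pair nothing. Depth limits Axin2 most, with as few as 2 fragments in a library.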
